A study of Schizosaccharomyces pombe with 8 samples.

Results

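Pac1, the RNase III endonuclease of the fission yeast Schizosaccharomyces pombe, was mapped on chromatin by ChIP-seq of a TAP-tagged protein, and 42 long non-coding and antisense RNA genes lay at its peaks. They were all the genes of type ncRNA in the deposited list of Pac1-associated genes, except rrk1, the RNA subunit of RNase P, and SPNCRNA.1343. The list held 88 peaks and 166 genes by gene ID, in 172 pairs of gene and peak. Of the genes, 44 were ncRNA genes, and the 42 genes lay at 31 of the peaks. A gene is called listed here when a peak overlapped it by any length, so the genes were chosen by the peak bounds of the same list, and their presence at a peak is not a finding. What is described is how each gene lay under its peak, which other genes shared the peak, and what the RNA sequences held.

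The peaks came from 2 Pac1-TAP immunoprecipitates, each set against its own input (2 inputs), from strain FBY2277, an h+ strain that carries Pac1-TAP-natMX6 at the pac1 locus and the markers his3-D1, ura4-D18, leu1-32 and ade6-M216. All cells grew in EMM, a minimal medium, and rapamycin is named in the labels' condition for the other strains only. The other 4 libraries of the series were RNAPII (8WG16) immunoprecipitates and inputs from strain FBY2300 (Pac1-AA, with Pac1-FRB-GFP::natMX6) and control strain FBY2066, both with torSE::KanMX6, fkh1::URA+ and an nmt1-driven rpl13-2FKBP12 anchor, and both given rapamycin at 2.5 µg/ml for 2 h. They were not analysed here, since the list holds no value for them. The list gives 1 p-value per peak over both replicates (called the combined value below) and no value per library, so no replicate error, depth or peak height stands behind the counts below, and they are given as descriptions with no test. Peak bounds carry no strand, so where a peak covers genes on both strands the RNA concerned cannot be told apart.

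RNase III enzymes cut double-stranded RNA, such as the stem of a hairpin, and Pac1 is an essential member of the family, known for processing precursors of rRNA, snRNAs and snoRNAs. Long non-coding RNAs are made by RNA polymerase II, and many in fission yeast overlap a protein-coding gene on the other strand or run into a neighbour on the same strand. Several are bound during growth by Mmi1, a protein that recognises UNAAAC in RNA and leads it to decay by the exosome.

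Peaks with a listed ncRNA gene were spread over chromosomes I, II and III (14, 12 and 5 peaks, with 18, 15 and 9 of the genes). They were 545 to 4378 bp wide with a median of 1356 bp, against a median of 1401 bp for the other 57 peaks. The combined value was 0 at 11 of the 31 peaks (35.5%) and at 23 of the other 57 (40.4%), and the remaining ncRNA peaks ranged from 1.22e-306 to 6.35e-78. By gene, 19 of the 42 (45.2%) lay at a peak with a combined value of 0, beside 41.6% of all listed genes. In 21 peaks there was 1 such gene, in 8 there were 2 and in 2 there were 3.

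Few of these peaks belonged to an ncRNA gene alone. A protein-coding gene and no snoRNA gene was listed at 21 of the 31 peaks, a snoRNA gene at 6, and ncRNA genes alone at 4. A gene is said to hold the peak when the centre of the peak lies between its bounds. The centre is the midpoint of the listed peak bounds and need not be the point of highest signal. By the classes in the list, a protein-coding or snoRNA gene with no ncRNA gene held the centre at 14 peaks. An ncRNA gene held it together with another gene at 9, and ncRNA genes alone held it at 8. Counted by gene, 20 of the 42 ncRNA genes (47.6%) held a centre, beside 53.6% of all 166 listed genes and 65 of the 98 listed protein-coding genes (66.3%). The peak covered at least 50% of the gene in 23 cases (54.8%, beside 63.3% of all listed genes). It covered the whole gene in 9 of 42, beside 45 of all 166. At most 10% of the gene was covered in 11 of 42, beside 29 of all 166. The smallest overlap was 2 bp, at SPNCRNA.1385, and the nearest ncRNA genes of the reference annotation (numbered below 2000) just outside a peak were SPNCRNA.993 and SPNCRNA.861, at 11 and 12 bp. The plot of peaks and genes by distance shows all 42.

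**Figure D1:**
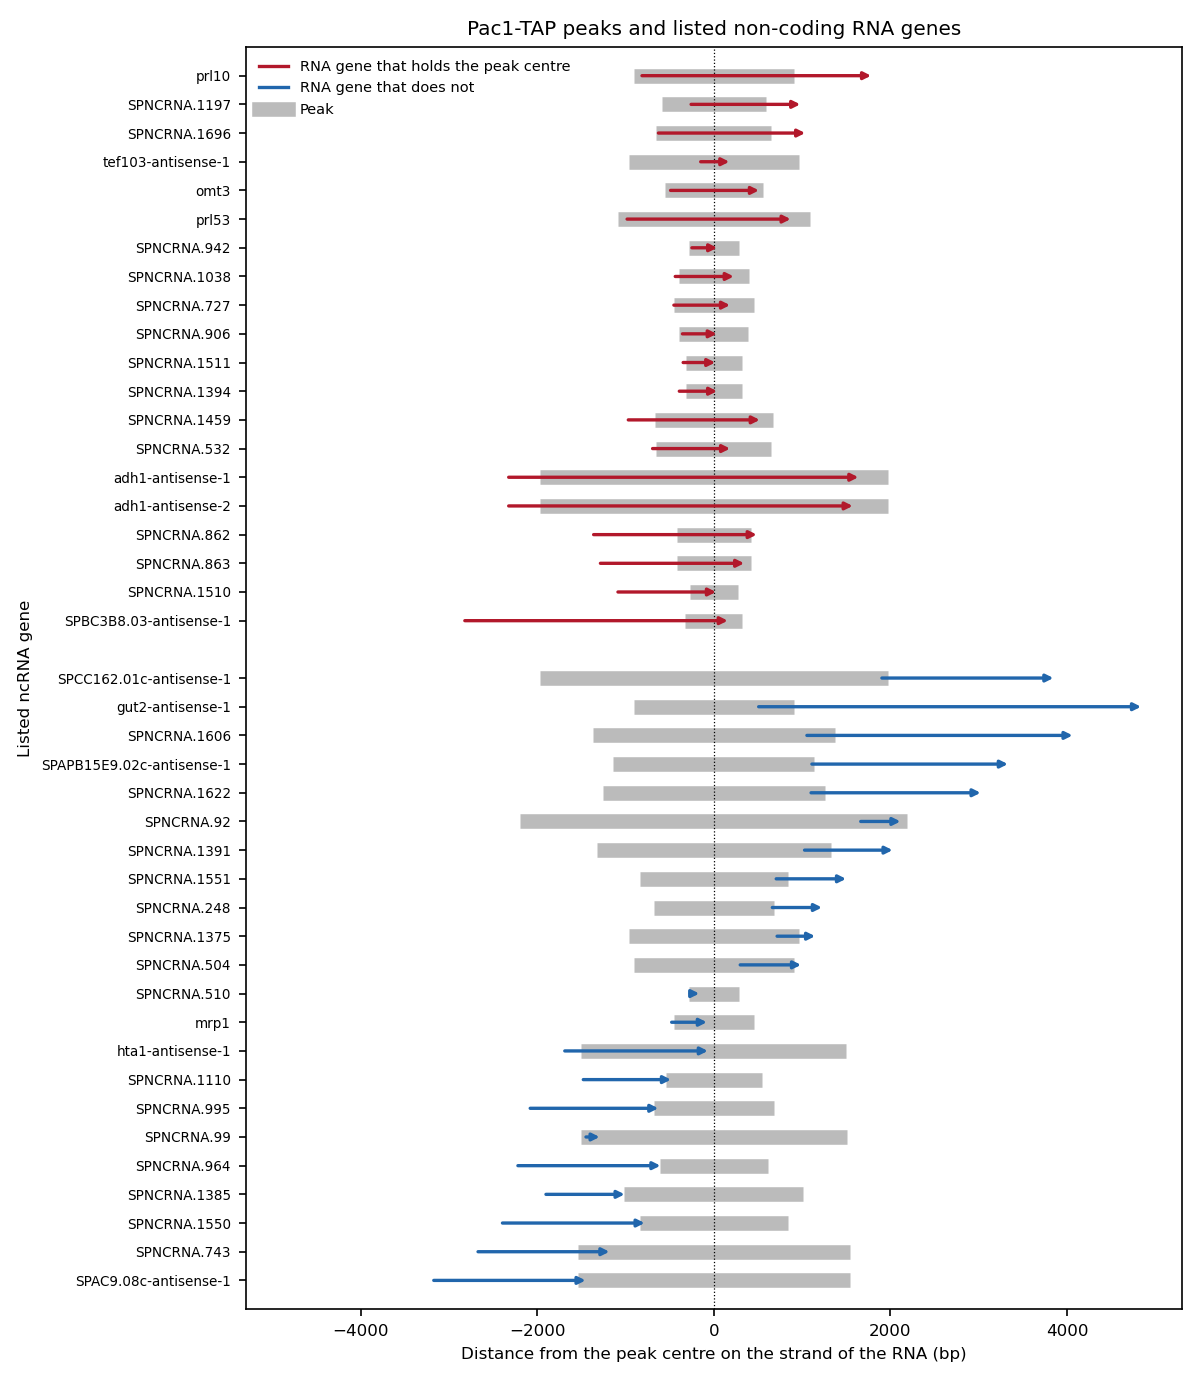
Each row is a listed ncRNA gene (arrow, drawn in the direction of transcription) and its peak (grey bar), placed by distance in bp from the peak centre (dotted line) on the strand of the RNA. The 20 genes in red held the centre and the 22 in blue did not; for SPNCRNA.743, which lay at 2 peaks, the one with the larger overlap is drawn.

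At 8 peaks only ncRNA genes held the centre, by their class in the list. Among these holders, the reference annotation merges SPNCRNA.1038 into snR90 and SPNCRNA.727 into mrp1. It classes SPNCRNA.1394 as a snoRNA gene. Of the 8 peaks, 2 lay at genes that the reference names nam, for RNAs found associated with Mmi1. Both nam genes were picked out after their values had been seen. nam1 (SPNCRNA.1459) lay at chrII:1742555-1744043 on the minus strand, and its peak at chrII:1742407-1743743 (combined value 3.58e-172) covered 1189 bp of it, 79.9%, with the peak centre 224 bp 3′ of the gene's midpoint. Downstream on the same strand, 50 bp away, stood byr2, the MAP kinase kinase kinase of the mating pathway, of which the peak took in 98 bp (3.99%). nam3 was in the list as SPNCRNA.1696 and again as SPNCRNA.532, which the reference merges into it. Its peak at chrII:4465010-4466308 was listed at a combined value of 0 and held no gene of another class. It covered 1277 bp of SPNCRNA.1696 (76.8%) and 834 bp of SPNCRNA.532 (95.0%).

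TNAAAC, the DNA form of the Mmi1 motif UNAAAC, was searched on the strand of the RNA and on the other strand, counting overlapping matches. nam1 held 9 TNAAAC hexamers in 1489 nt (6.04 per kb), and all 9 lay in the part inside the peak. Of 1402 ncRNA genes of the reference annotation that matched no listed gene by name (called unlisted below), 28 held at least 9. nam3 held 4 in 1662 nt (2.41 per kb), 2 of them inside the peak, and 373 of the 1402 held at least 4. Shown are the 300 nt of each RNA with the most TNAAAC, in the DNA letters of the RNA strand (RefSeq, ASM294v3), with the hexamers in capitals: nt 1074 to 1373 of nam1 (chrII:1742671-1742970, minus strand) and nt 290 to 589 of nam3 (chrII:4465698-4465997, minus strand).
nam1: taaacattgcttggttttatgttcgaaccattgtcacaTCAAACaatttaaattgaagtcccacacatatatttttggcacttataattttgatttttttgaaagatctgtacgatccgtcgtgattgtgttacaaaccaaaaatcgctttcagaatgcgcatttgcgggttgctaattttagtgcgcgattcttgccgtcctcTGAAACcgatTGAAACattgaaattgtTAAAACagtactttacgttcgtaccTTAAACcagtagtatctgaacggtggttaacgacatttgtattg
nam3: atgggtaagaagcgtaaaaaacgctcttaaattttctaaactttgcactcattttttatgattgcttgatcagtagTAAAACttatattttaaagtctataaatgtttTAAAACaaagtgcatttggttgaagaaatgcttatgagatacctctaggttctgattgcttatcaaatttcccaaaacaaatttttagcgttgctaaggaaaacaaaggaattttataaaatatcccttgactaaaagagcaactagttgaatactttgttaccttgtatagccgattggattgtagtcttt
The window of nam1 held 5 hexamers in 4 spellings, with TGAAAC found 2 times, and that of nam3 held TAAAAC 2 times. A match of letters is no binding site, and Mmi1 was not measured here.

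Most ncRNA genes, listed or not, held the motif. Sequence could be read for 34 reference genes that stand for 36 of the 42 listed ones. For SPNCRNA.906 and SPNCRNA.1038 it was that of snR30 and snR90, the snoRNA genes they are merged into. The reference also classes SPNCRNA.1394 as a snoRNA gene, while the 1402 unlisted genes were all of lncRNA or ncRNA class. Of the 34, 32 held TNAAAC on their own strand (94.1%), against 81.7% of the 1402 unlisted genes and, on average, 83.5% of unlisted genes within 25% of their length. Listed ncRNA genes were longer, with a median of 1469.5 nt against 1046 nt. Per kb, the listed ncRNA genes summed to 2.03 TNAAAC and the unlisted to 1.99, and on the opposite strand to 2.42 and 2.03. Among the 16 of the 34 that held a centre by their bounds in the list, the sum was 2.39 per kb, and 15 held the motif. By the bounds of the reference, 15 of 36 listed genes held a centre. SPNCRNA.1606 held 11, the most of the 34, of which 1 lay inside its peak, and 14 of the 1402 unlisted genes (0.999%) held 10 or more. It was 3008 nt long, so its 3.66 per kb was below the 6.04 of nam1. Of 148 unlisted genes within 25% of its length, 97.3% held fewer. In the 31 genes with the same bounds in the list and in the reference, 37 hexamers lay inside the peaks (2.37 per kb) and 49 outside (1.74 per kb). Of the 37, 9 were those of nam1, and without nam1 there were 28 inside (1.94 per kb), against 1.76 per kb outside.

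**Figure D2:**
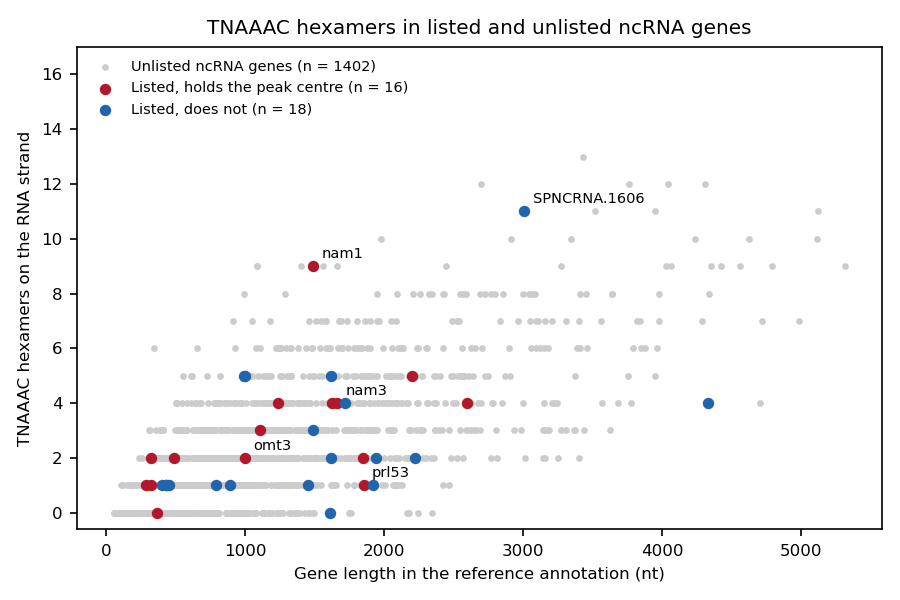
Number of TNAAAC hexamers on the RNA strand against gene length (nt) for 34 listed ncRNA genes, with 1402 unlisted ncRNA genes in grey. Listed genes are red where they held a peak centre by their bounds in the list (16) and blue where they did not (18). nam1 had 9 at 1489 nt, nam3 4 at 1662 nt and SPNCRNA.1606 11 at 3008 nt.

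Of the 42 ncRNA genes, omt3, an intergenic RNA, was the only one with no other listed gene at its peak (1 of 42, 2.4%, beside 20.5% of all listed genes). Its 1001 bp at chrI:4516070-4517070, on the plus strand, lay wholly inside the peak at chrI:4516004-4517115 (combined value 9.51e-187), which reached 66 bp past its 5′ end and 45 bp past its 3′ end. The peak centre stood 10.5 bp 5′ of the gene's midpoint, the closest of the 42. omt3 held 2 TNAAAC and a longest stem of 23 base pairs. Besides that of nam3, the other peaks with ncRNA genes alone were at 2 pairs of overlapping genes. SPNCRNA.942 (287 bp) and SPNCRNA.510 (102 bp), on the plus strand of chromosome I, shared 84 bp and lay wholly inside a peak of 567 bp (chrI:3850989-3851555, combined value 1.59e-127), and SPNCRNA.942 held its centre. SPNCRNA.862 and SPNCRNA.863 were transcribed towards each other and overlapped by 830 bp at their 3′ parts. Their peak of 836 bp (chrI:2939064-2939899, combined value 2.3e-170) lay wholly within SPNCRNA.862 and covered 762 bp of SPNCRNA.863, beside the 830 bp that both strands are annotated to transcribe. The peak centre lay 437.5 bp 3′ of the midpoint of SPNCRNA.862 and 470 bp 3′ of that of SPNCRNA.863.

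No protein-coding gene was listed at the peaks of 9 of the ncRNA genes. Of these, 7 held the centre, and the median share of the gene inside the peak was 95.0% (45.3 to 100%). For the 33 with a protein-coding gene at the peak (78.6% of 42), 13 held the centre and the median share was 29.5% (0.224 to 100%). The 9 were shorter (median 878 bp) than the 33 (1451 bp), and the part of length in the difference was not tested. All of the 9 but omt3 overlapped another of the 9 at the same peak, so they are not independent. With no protein-coding gene listed, fewer other genes could hold the centre, so the split itself bears on this contrast. How often the other listed genes share a peak with a protein-coding gene was not counted.

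Next to snoRNA genes, 7 listed ncRNA genes lay at 6 peaks, and the peak centre was 3′ of the gene's midpoint in 7 of 7 (by 105.5 to 1330.5 bp), while among all 42 it was so in 26 (61.9%, beside 66.3% of all listed genes). It was so also in 12 of the 15 listed snoRNA genes (80%). Small nucleolar RNAs guide the modification or cleavage of rRNA, and their precursors are longer than the mature RNA. In 5 of the 7 the ncRNA gene overlapped the snoRNA gene on the same strand. SPNCRNA.906 shared 318 bp with snR30 (U17, needed for 18S rRNA processing), 97.5% of the snoRNA gene. It lay wholly inside a peak of 781 bp (combined value 1.34e-294), with the centre 161 bp 3′ of its midpoint. The reference annotation merges it into snR30, as it merges SPNCRNA.1038 into snR90. SPNCRNA.1038 was 663 bp long, held the whole 225 bp of snR90, a box H/ACA snoRNA, and had 94.1% of its length in the peak (combined value 5.22e-91). SPNCRNA.1394, counted as a snoRNA gene in the reference, held all 167 bp of snR3, also of box H/ACA type, and 82.3% of its 429 bp lay in the peak (combined value 1.75e-135). SPBC3B8.03-antisense-1 was the longest of the 7, at 2977 bp, and sno16 lay within its last part, so that 16.2% of it was in the peak (combined value 6.35e-78), but it held the centre.

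The RNA of RNase MRP, mrp1, shared its peak (chrI:1234476-1235380, combined value 0) with SPNCRNA.727 and snoZ16, all on the plus strand. RNase MRP is a ribonucleoprotein that cleaves pre-rRNA. The peak covered 374 of the 399 bp of mrp1 (93.7%), and its centre lay 278 bp 3′ of the midpoint of mrp1 and outside the gene. SPNCRNA.727, 636 bp, began at the first base of the peak, ran through 374 bp of mrp1 and all 83 bp of snoZ16, and held the centre. snoZ16 stood 113 bp downstream of mrp1, and the peak centre was just outside it, 5′ of its midpoint. The reference annotation merges SPNCRNA.727 into mrp1. Local folding of mrp1 reached -52.8 kcal/mol within 150 nt, the lowest of the 34 listed genes with sequence (median -41.15, against -35.3 for the unlisted). The listed genes were longer, and the part of length in the difference of medians was not tested. Of 148 unlisted genes within 25% of the length of mrp1, 100% had a higher lowest energy. At the last snoRNA peak SPNCRNA.1510 and sno20 (snR35, box H/ACA) faced each other on opposite strands, 55 bp apart, and 26.8% of SPNCRNA.1510 was inside the peak (combined value 2.48e-184).

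Protein-coding genes on the opposite strand were overlapped by 20 of the 42 ncRNA genes, and 10 of these 20 held the peak centre. Of the 42, 25 had an opposite-strand protein-coding gene at the peak, 20 a same-strand one and 12 both. Such neighbours were not counted for the other listed genes or the unlisted ncRNA genes. So these counts are not shown to be particular to the 42. A protein-coding gene held the centre at the peaks of 20 of the 22 ncRNA genes that did not, and at those of 9 of the 20 that did. Of the 9 genes with antisense in their name 4 held the centre (44.4%), and of the other 33, 16 did (48.5%). The 4 include adh1-antisense-1 and adh1-antisense-2, which overlap. The 33 include prl10 and SPNCRNA.1391, which the list describes as antisense, so the split goes by name only. The median share of the gene inside the peak was 16.2% for the 9, whose median length was 2219 bp, and 68.2% for the 33, whose median length was 993 bp.

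Antisense RNAs lay deep under the peak at adh1, nmt1 and tef103. At adh1, the alcohol dehydrogenase of fermentation, the peak was 3945 bp wide (chrIII:1589689-1593633, combined value 0). It covered 91.2% of adh1-antisense-1 (3959 bp) and 91.0% of adh1-antisense-2 (3895 bp), which differ at their 3′ ends, and 92.4% of adh1. Both antisense RNAs also ran along SPCC13B11.02c on their own strand, over 3794 and 3730 bp, and all 4 genes held the centre. SPCC162.01c-antisense-1, 266 bp downstream of adh1-antisense-1, had 70 bp (3.6%) at the edge of the same peak. At nmt1, a thiamine-repressed enzyme of thiamine synthesis, prl10 crossed the whole gene on the other strand. The peak (chrIII:1838372-1840186, combined value 0) covered 1721 bp of prl10 (66.3%) and 96.9% of nmt1, and its centre was 483.5 bp 5′ of the midpoint of prl10 and 349 bp 3′ of that of nmt1. Downstream of nmt1 on its own strand, SPNCRNA.504 (88.4%) and gut2-antisense-1 (9.24%) lay 52 and 261 bp away, and both overlapped prl10. At tef103, 1 of the genes of translation elongation factor EF-1 alpha, tef103-antisense-1 (325 bp) lay wholly within both the gene and the peak (chrII:625672-627595, combined value 1.85e-210), with the peak centre 13.5 bp from its midpoint and 146.5 bp from that of tef103. SPNCRNA.1375, 86 bp downstream of tef103 on its strand, had 57.1% in the peak.

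At other protein-coding genes the antisense RNA lay on 1 side of the centre or shared it. hta1-antisense-1 ran across the whole of hta1, which encodes histone H2A, and ended 22 bp before htb1 (histone H2B). The peak (chrIII:1410933-1413931, combined value 0) covered 88.4% of the antisense RNA and 100% of both histone genes, and htb1 held the centre. SPNCRNA.92, 450 bp within pma1, the plasma membrane proton pump, lay wholly in the widest peak of the set (4378 bp, combined value 1.32e-212), but 1888 bp from its centre. SPNCRNA.1197 overlapped 953 bp of SPCC11E10.01, a predicted cystathionine beta-lyase, and both held the centre, with 68.2% of SPNCRNA.1197 inside the peak (combined value 0). SPNCRNA.1511 covered the 3′ end of ape2, an aminopeptidase gene, and had 92.0% inside a peak of 637 bp (combined value 7.52e-235), whose centre both genes held. Of ape2, 9.56% was in that peak.

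With only the 5′ end inside the peak there were 13 of the 42 ncRNA genes, and 32 of all 166 listed genes. Among them, 4 did not hold the centre, shared the peak with no further ncRNA gene and overlapped a protein-coding gene on the other strand that held it. SPNCRNA.1622 overlapped zrt1, a zinc transporter gene, by 73 bp, and 8.07% of it was inside the peak (combined value 0), which covered all of zrt1. SPNCRNA.1391 overlapped mfs3, a transporter gene of the major facilitator family, by 361 bp, with 29.5% inside (combined value 4.17e-181). SPNCRNA.1606 and SPBPB7E8.01, a predicted GPI-anchored protein gene, shared 2624 bp, and 10.4% of SPNCRNA.1606 was inside (combined value 3.86e-231). SPAPB15E9.02c-antisense-1, opposite the flocculin gene pfl2, had 27 bp inside (1.22%, combined value 5.92e-162).

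SPNCRNA.743 was the only listed ncRNA gene at 2 peaks. It overlapped 1170 bp of thi9, a thiamine transporter gene, and 90 bp of met26, the methionine synthase gene next to it, both on the other strand. Of its 1488 bp, 359 bp (24.1%) lay in the peak at met26 (combined value 2.17e-237) and 173 bp (11.6%) in that at thi9 (combined value 1.22e-306), 1 at each end of the RNA. It held neither centre. At the far side of the met26 peak, SPAC9.08c-antisense-1 had 89 bp (5.18%) inside.

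prl53, a poly(A)-bearing RNA, lay wholly inside its peak (chrI:4007840-4010007, combined value 0), with the peak centre 56 bp from its midpoint. It shared 1831 of its 1852 bp with SPAC27E2.11c, a Schizosaccharomyces-specific protein gene on the same strand that also held the centre, so the peak cannot tell them apart. The dubious gene SPAC27E2.13 lay within it on the other strand.

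The list describes 12 of the 42 as a possible alternative UTR, that is, as RNA that may be part of a neighbouring mRNA. Of these, 10 had only their 3′ end inside the peak, 3 held a centre and none lay wholly inside, and the median share inside was 5.41%. Those that held a centre were nam1, SPNCRNA.1510 and SPBC3B8.03-antisense-1. Of the other 30, 9 had only their 3′ end inside, 17 held a centre and 9 lay wholly inside, and the median share was 89.7%. The 12 were longer (median 1549.5 bp) than the other 30 (937.5 bp), and the part of length in the difference was not tested. In 5 of the 12 the RNA lay upstream of a gene with a peak and entered the peak with its 3′ end by at most 56 bp. SPNCRNA.1385 entered the peak of anc1, the mitochondrial ADP/ATP carrier gene, by 2 bp. SPNCRNA.964 entered that of tif51 (eIF5A) by 10 bp, SPNCRNA.995 that of SPAC27D7.11c by 50 bp, SPNCRNA.1110 that of pmp20, a thioredoxin peroxidase gene, by 56 bp, and SPNCRNA.1550 that of tdh1 (glyceraldehyde-3-phosphate dehydrogenase) by 56 bp. These 5 lay on the strand of the downstream gene, 4 of them overlapping the start of the downstream gene by 30 to 64 bp, and the downstream gene held the centre each time. SPNCRNA.1551, 31 bp downstream of tdh1, had its first 133 bp in the same peak.

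**Figure D3:**
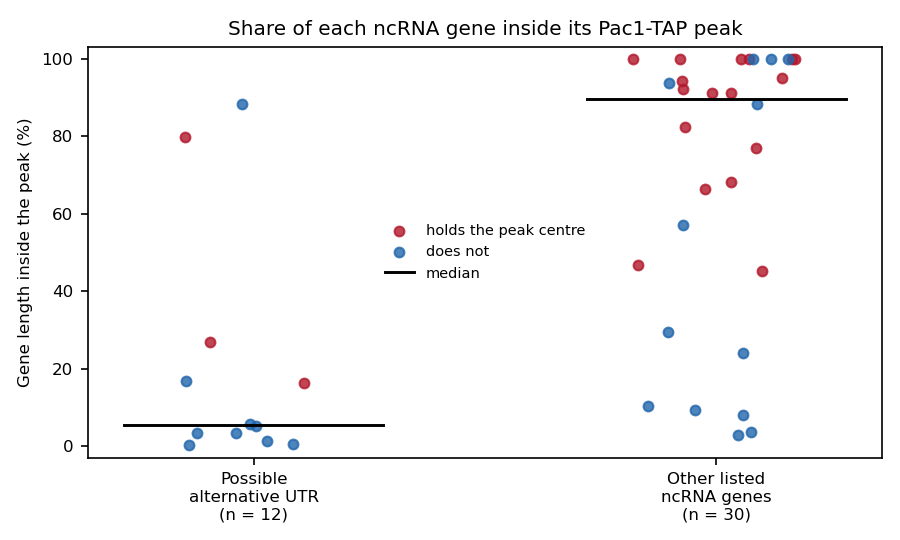
Percent of each ncRNA gene's length inside its peak, for the 12 described in the list as a possible alternative UTR and the other 30; points are genes (red, holds the peak centre; blue, does not) and bars are medians. The median was 5.41% for the 12 and 89.7% for the 30.

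The last 2 genes were small parts of larger peaks. SPNCRNA.99 (155 bp) lay wholly inside a peak of 3011 bp (combined value 4.53e-247) held by sfp1, a transcription factor gene, 308 bp upstream of it. SPNCRNA.248, inside SPNCRNA.995 on the other strand, had 16 bp (2.85%) in the peak of SPAC27D7.11c.

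Hairpins were sought because they are the kind of RNA that Pac1 cuts. A stem of at least 20 base pairs, with up to 3 unpaired bases a side between pairs, was predicted in 28 of the 34 listed genes with sequence (82.4%), against 76.2% of the 1402 unlisted ones, so that most ncRNA genes of either kind had one. With at most 1 unpaired base a side it was predicted in 5 of 34 (14.7%), against 138 of 1402 (9.84%). Among unlisted genes within 25% of the listed genes' length, the average shares were 78.3% with up to 3 unpaired bases and 9.98% with at most 1. Of the 5, only the stem of prl53 lay inside its peak, and prl53 was the only one that held a centre. adh1AS, counted as unlisted, also passed this limit, with 22 pairs. It may be adh1-antisense-1, which held a centre, under another number, and the place of its stem was not examined. The 5 hairpins are printed because they were the most regular found in the 34 genes. Capitals mark paired bases, the letters are those of the RNA strand in DNA form, from RefSeq (ASM294v3), and each line is 1 hairpin.
prl53: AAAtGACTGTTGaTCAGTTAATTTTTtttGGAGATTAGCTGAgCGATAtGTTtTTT
SPNCRNA.1110: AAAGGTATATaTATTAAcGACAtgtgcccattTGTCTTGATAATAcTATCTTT
SPNCRNA.1550: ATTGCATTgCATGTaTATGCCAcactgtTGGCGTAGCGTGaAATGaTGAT
SPNCRNA.995: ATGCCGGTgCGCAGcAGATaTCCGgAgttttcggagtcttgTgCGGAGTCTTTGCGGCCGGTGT
gut2-antisense-1: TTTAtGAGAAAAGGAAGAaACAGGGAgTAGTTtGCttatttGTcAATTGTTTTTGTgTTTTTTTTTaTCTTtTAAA
They lay at chrI:4008655-4008710 (prl53, minus strand), chrIII:118988-119040 (SPNCRNA.1110, minus strand), chrII:2806514-2806563 (SPNCRNA.1550, plus strand), chrI:4531746-4531809 (SPNCRNA.995, minus strand) and chrIII:1842890-1842965 (gut2-antisense-1, plus strand).

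The stem of prl53 had 24 base pairs and lay at nt 1196 to 1251 of the RNA, which places it also within SPAC27E2.11c. That of gut2-antisense-1 had 31 pairs, the most of the 34 under this limit of 1 unpaired base, but lay at nt 3104 to 3179, while only the first 400 nt were in the peak. That of SPNCRNA.1110, at nt 923 to 975, straddled the peak edge at nt 938. In SPNCRNA.995 (22 pairs) and SPNCRNA.1550 (20 pairs) the stem ended at nt 741 and 580, while the peak began at nt 1402 and 1555.

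**Figure D4:**
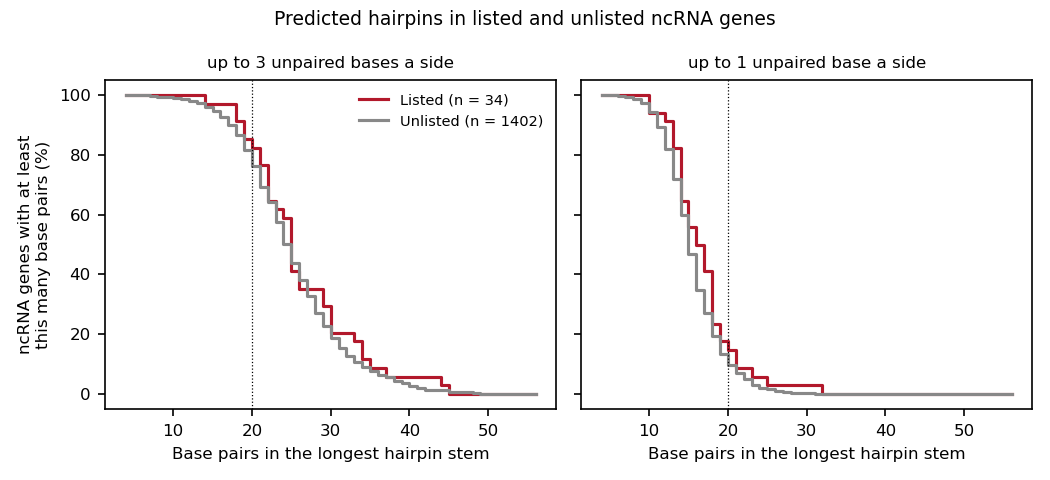
Percent of ncRNA genes whose longest predicted stem had at least the number of base pairs on the x axis, for 34 listed (red) and 1402 unlisted (grey) genes, with up to 3 (left) or 1 (right) unpaired bases a side; the dotted line marks 20 base pairs. At 20 pairs the values were 82.4% and 76.2% on the left, and 14.7% and 9.84% on the right.

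Other ncRNA genes known by name were looked up among the peaks. Of those taken for this comparison, rrk1, mrp1 and omt3 overlapped a peak. srp7, the RNA of the signal recognition particle, ter1, the telomerase RNA, and sme2, the meiotic RNA that sequesters Mmi1, did not, at 126352, 144710 and 12033 bp from the nearest one. Of 56 poly(A)-bearing (prl) ncRNA genes in the reference, prl53 alone overlapped a peak, and prl10 carries that name only in the list. Of the 4 nam ncRNA genes, nam1 and nam3 overlapped a peak, while nam5 and nam6 stood 90049 and 77505 bp away. The nam genes were added to this comparison after nam1 and nam3 were known to be listed. Their share is therefore no measure of how often such RNAs lie at a peak. Of the 1402 unlisted ncRNA genes, 6 entries of the reference overlapped a peak and were not in the list by name, adh1AS and mamRNA among them. adh1AS is 3959 nt long, as is adh1-antisense-1, and overlaps a peak on the same chromosome. It may be that listed gene under another number. So unlisted does not everywhere mean without a peak or absent from the list.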

How the data were processed

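Pac1-TAP ChIP-seq was done in 2 immunoprecipitates with 2 inputs. Trimming (Trimmomatic), mapping to ASM294v2.26 (HISAT2) and peak calling in each replicate against its input (MACS2, duplicates kept) were done by the authors, who joined the replicates with MSPC. The deposited list holds peak and gene bounds and the p-value that MSPC gave each peak over both replicates. Read depth is unknown and no replicate value was used. No column of values per sample was in the list (0 left out).

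Overlap, strand relation and the peak centre came from the bounds as listed (peak starts read as 1-based), in Python 3.11.15 with numpy 2.4.6 and pandas 2.3.3. SPNCRNA.743 was counted at the peak with the larger overlap. Sequence came from RefSeq ASM294v3, another release than the list. Of the 42 genes, 36 (85.7%) matched a reference gene (32 by their own name, 4 merged into another gene). Bounds and strand were identical for 31 (12, 13 and 6 on chromosomes I, II and III), and positions inside a peak are given for these. The names of adh1-antisense-1 and adh1-antisense-2 are now used for genes elsewhere, so both were left unmatched. Unlisted genes were reference genes of lncRNA or ncRNA class, numbered below 2000, that matched no listed gene by name. Hairpins came from local structures within 150 nt (RNALfold, ViennaRNA 2.7.2), a step tested on simulated data. Figures were drawn with matplotlib 3.10.9.

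Every listed ncRNA gene could be named. Full values were given for those that held a centre, were alone at a peak, or had a symbol or antisense in the name. The genes, the lists and the measures were chosen with earlier results of these data known. Alternatives to each count are in the closing section.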

Additional observations from a re-analysis of the deposited data

How the results depend on the processing

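Of 23 alternatives to 8 counts, 12 stayed within 1.5 times the count. The 20 genes that held a centre became 11 (of 29) with a combined p of at most 1e-200, and the 23 genes with at least 50% of their length inside a peak became 38 when 50 bp sufficed. Genes alone at a peak were 1, or 5 entries when an overlapping ncRNA gene of the same strand was disregarded. These 5 were omt3 and both members of the overlapping pairs SPNCRNA.942 with SPNCRNA.510 and SPNCRNA.1696 with SPNCRNA.532, so each pair was counted by entry. The 26 genes with the centre 3′ of the midpoint became 15 of 20 among those that held the centre, 15 of 23 among those at least 50% covered and 16 of 29 at p of at most 1e-200. The 28 genes with a stem of 20 pairs became 14 at 25 pairs, 5 with at most 1 unpaired base a side and 12 of 16 among centre holders. Among centre holders, genes with TNAAAC were 15 of 16, against 32 of 34, and genes at a peak with p of 0 were 8 of 20, against 19 of 42. Several of these settings count fewer genes by their construction. Counting peak starts from 0, an alternative chosen after seeing the data, left 20 genes with a centre and 26 with it 3′ of the midpoint. No paired analysis was possible because both replicates are merged into 1 value for each peak, and leaving out a replicate was not run for the same reason. The counts carry no error between replicates, and how depth bears on peak width is unknown.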
